A study of Mus musculus with 15 samples.

Results

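The comparison set all arrays from Klf3-deficient fetal liver cells against all arrays from Klf3-intact cells, whatever their Klf8 genotype. Of the 15 arrays in the series, 7 were Klf3-deficient and 8 were Klf3-intact, and the members were chosen by array title alone. The deficient arrays were 3 titled Klf3KO (Klf3-/-) and 4 titled DKO (Klf3-/- and Klf8gt/gt), where gt is a gene-trap allele of Klf8. The intact arrays were 4 titled Klf8gt (Klf8gt/gt with both Klf3 copies in place) and 4 titled WT. All were of strain FVB/NJ at stage E13.5, and all held RNA of TER119+ cells that had been taken from fetal liver with magnetic beads against TER119, an antigen of maturing red cells. The Klf3 null allele acts in the whole embryo, so a difference in these cells need not arise within them. Each difference is the Klf3 effect, deficient minus intact, from a linear model that also held the Klf8 genotype, and a cluster of probes was called when its adjusted p was under 0.05.

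KLF3 is a zinc-finger repressor of the Kruppel-like family that binds CACCC-type boxes and recruits the corepressor CtBP. In the erythroid lineage the activator KLF1 switches on both Klf3 and Klf8, and KLF3 in turn holds Klf8 and other genes with such boxes in check. The X-linked relative KLF8 represses through the same corepressor, and the study combined both alleles to ask what the pair does in fetal erythroid cells.

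The deposited values were log2 signals, 1 per transcript cluster and array. Array medians lay between 6.28 and 6.41, lower quartiles between 4.92 and 5.01, upper quartiles between 8.10 and 8.32, and the correlation between any 2 arrays between 0.974 and 0.992. Spread within a genotype differed, with a median SD per cluster of 0.10 in Klf3KO, 0.17 in DKO, 0.15 in Klf8gt and 0.12 in WT arrays. DKO 4, DKO 1 and Klf8gt 1 had the lowest mean correlations with their own group (0.982 each). All 9 measured erythroid markers lay above the upper quartile of every intact array, and 0 of the 9 was called (4 lower at an unadjusted p under 0.05). Macrophage markers were also present: 14 of 16 lay above that quartile, and their mean was lower in deficient arrays (8.27 ± 0.59, range 7.23 to 8.81, SD, n = 7) than in intact arrays (8.86 ± 0.24, range 8.44 to 9.19, SD, n = 8). By genotype that mean was 8.65 ± 0.27 in Klf3KO, 7.99 ± 0.63 in DKO, 8.70 ± 0.22 in Klf8gt and 9.02 ± 0.13 in WT arrays (SD). By Y-linked signal, 3 deficient arrays were male and 4 female, against 6 male and 2 female intact arrays. By genotype there were 1 male and 2 female Klf3KO, 2 and 2 DKO, 2 and 2 Klf8gt and 4 and 0 WT arrays. The labels do not say that each array is a separate embryo or which arrays share a litter, so p-values here reflect only how these samples vary, and some of that variation may be technical.

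Without Klf3, more genes rose than fell, and the large changes were nearly all rises. Of 23410 clusters with a gene symbol, 531 were called (2.27%), 326 of them higher (1.39%) and 205 lower (0.876%) in Klf3-deficient cells. They stood for 284 genes higher and 195 lower that had a cluster of their own. The directions were close to even among changes under 0.5 on the log2 scale, with 112 higher and 105 lower clusters. Between 0.5 and 1 the counts were 139 higher and 89 lower, between 1 and 2 they were 58 and 11, and at 2 or more they were 17 and 0. Most called changes were modest, since 445 of the 531 (83.8%) were smaller than 1 and the median size was 0.55. The bar plot of called clusters by size shows this tilt toward rises with growing size. In 270 clusters (1.15% of those tested) the deficient and intact arrays did not overlap, and 258 of these were called, 194 higher and 64 lower. At an unadjusted p under 0.05 there were 2558 clusters.

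**Figure D1:**
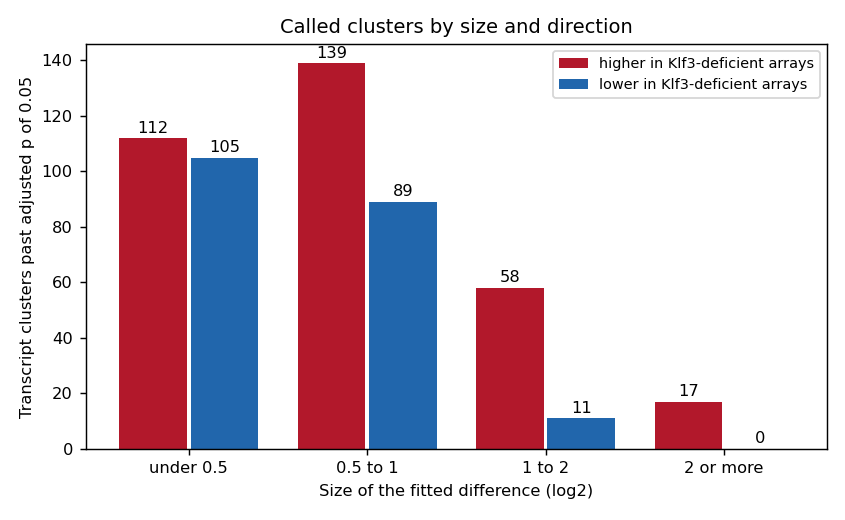
Number of transcript clusters past an adjusted p of 0.05 (vertical axis) by size of the fitted Klf3 effect on the log2 scale (horizontal axis), with rises in Klf3-deficient arrays in red on the left and falls in blue on the right of each pair. The pair under 0.5 is nearly even (112 and 105), and the pair at 2 or more holds 17 rises and 0 falls.

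The Klf3 cluster itself gave more signal in deficient cells. Its log2 signal ran from 11.06 through a median of 11.36 to 11.73 in the 7 deficient arrays, against 10.12, 10.26 and 10.51 in the 8 intact arrays. Every deficient array lay above every intact array, with a difference of 1.08 ± 0.09 (SE; 95% interval 0.89 to 1.26; limma adjusted p = 1.35e-06). The sources used here do not place these probes relative to the deleted part of the gene, so this signal does not check the genotype labels. Two-sided exact permutation of the arrays within each Klf8 background gave p = 0.000408 for Klf3, the smallest that 2450 arrangements allow (0.00102 adjusted over 5 genes).

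Klf8, a KLF3-repressed relative, rose in both Klf8 backgrounds and gave little signal in intact cells. The Klf3KO arrays read 8.83, 8.89 and 8.42 and the DKO arrays 8.04, 7.35, 6.85 and 6.91. The intact arrays read 5.48, 5.42, 5.38 and 5.27 for Klf8gt and 5.13, 5.55, 5.34 and 5.43 for WT. The 8 intact arrays lay together between the lower quartile and the median of their arrays whether or not they carried the trap, while in deficient cells every array without the trap lay above every array with it. The Klf3 effect was 2.57 ± 0.23 (SE; 95% interval 2.08 to 3.06; limma adjusted p = 3.74e-06), and within backgrounds it was 3.35 between Klf3KO and WT and 1.90 between DKO and Klf8gt arrays. Exact permutation gave the smallest possible p, 0.000408, here too. Of the 17 family members measured, Klf3 and Klf8 were called higher and Klf6 lower, and the median difference of the family was 0.04 beside -0.01 over all clusters tested. At an unadjusted limma p under 0.05, 6 members were higher and 2 lower.

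Klf6, a widely expressed activator of the family, read 7.58, 7.99 and 8.21 (lowest, median and highest) in deficient arrays and 8.21, 8.34 and 8.55 in intact arrays. The groups met at 8.21, and the difference was -0.42 ± 0.09 (SE, adjusted p = 0.0204). That call was lost without Klf3KO replicate 3 (adjusted p = 0.0526) and without Klf8gt replicate 4 (0.0505), and with the macrophage marker mean as a covariate the difference was -0.20 (adjusted p = 0.39).

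Among the 15 genes with the largest rises, Klf8 included, 12 had at least 1 promoter in the RefSeq table of assembly GRCm38.p6, which gives 250 bases before and 50 after each start. The promoters of Pqlc3 and Rragd are printed for the largest rises, and those of Lgals3 and Klf8 because both genes are published KLF3 targets. Capitals mark each CACCC box, the core of the motif KLF3 binds, read on either strand (GGGTG on the other strand), and some boxes adjoin each other.
Pqlc3 promoter (chr12:17000069-17000368, minus strand): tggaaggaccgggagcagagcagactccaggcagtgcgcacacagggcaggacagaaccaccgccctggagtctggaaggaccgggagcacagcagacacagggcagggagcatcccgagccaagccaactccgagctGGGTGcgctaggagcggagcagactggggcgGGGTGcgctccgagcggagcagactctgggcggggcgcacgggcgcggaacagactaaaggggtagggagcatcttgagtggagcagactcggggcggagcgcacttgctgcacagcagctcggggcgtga
Rragd promoter (chr4:32982748-32983047, plus strand): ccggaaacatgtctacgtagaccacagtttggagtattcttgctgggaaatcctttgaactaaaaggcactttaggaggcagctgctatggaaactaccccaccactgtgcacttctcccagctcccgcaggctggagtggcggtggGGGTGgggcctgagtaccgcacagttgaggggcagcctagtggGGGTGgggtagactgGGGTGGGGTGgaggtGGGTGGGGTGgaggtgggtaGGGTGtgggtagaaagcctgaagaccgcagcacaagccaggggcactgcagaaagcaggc
Lgals3 promoter (chr14:47373610-47373909, plus strand): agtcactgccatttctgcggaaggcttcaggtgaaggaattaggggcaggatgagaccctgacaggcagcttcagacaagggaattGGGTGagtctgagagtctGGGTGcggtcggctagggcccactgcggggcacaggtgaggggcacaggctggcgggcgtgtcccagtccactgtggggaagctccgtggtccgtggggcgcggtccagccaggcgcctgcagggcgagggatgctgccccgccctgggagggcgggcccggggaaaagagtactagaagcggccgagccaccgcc
Klf8 promoter (chrX:153237498-153237797, plus strand): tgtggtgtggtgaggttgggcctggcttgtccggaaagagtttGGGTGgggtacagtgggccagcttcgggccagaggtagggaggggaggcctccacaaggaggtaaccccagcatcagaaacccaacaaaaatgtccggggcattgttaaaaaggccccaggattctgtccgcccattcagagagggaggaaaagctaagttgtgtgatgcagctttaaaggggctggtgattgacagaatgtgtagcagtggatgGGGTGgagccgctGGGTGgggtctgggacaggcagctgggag
Klf8 promoter (chrX:153359363-153359662, plus strand): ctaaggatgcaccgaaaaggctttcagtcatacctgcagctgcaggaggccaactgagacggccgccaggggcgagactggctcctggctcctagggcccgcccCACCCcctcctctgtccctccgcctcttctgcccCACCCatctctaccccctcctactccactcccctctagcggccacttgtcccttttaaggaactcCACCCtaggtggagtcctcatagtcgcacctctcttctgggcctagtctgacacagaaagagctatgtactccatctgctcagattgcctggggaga
The Rragd window held 7 boxes, all as GGGTG, the Klf8 windows 3 each and the Pqlc3 and Lgals3 windows 2 each. Of the 14 promoters of these 12 genes, 12 held at least 1 box. Such boxes are common, though: 70.5% of the 78 promoters of genes that rose by at least 1 held CACCC, beside 68.6% of 293 promoters of all called rises, 67.1% of 222 of all called falls and 60.9% of 19177 of all tested genes. Over every promoter in the table the share was 57.5%. At least 3 boxes stood in 21.8% of the promoters of genes that rose by at least 1 (17 of 78, from 58 genes) and in 15.4% of those of all called rises. The share was 10.8% for the falls and 10.6% for all tested genes. The looser motif CCNCNCCC, also read on both strands and able to overlap CACCC, stood in 79.5% of the promoters of rises of at least 1, in 82.3% of those of all rises, in 61.7% of those of falls and in 59.6% of those of all tested genes (49.5% of every promoter in the table). These shares describe letters in a window of fixed length and are not binding sites.

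Pqlc3 and Rragd had the largest fitted rises. Pqlc3, a membrane protein with PQ-loop repeats, gave 11.20, 11.89 and 12.27 in deficient arrays and 7.30, 7.83 and 8.01 in intact arrays. All 7 deficient arrays lay more than 3 log2 units above the highest intact array, and the difference of 4.10 ± 0.15 (SE, adjusted p = 5.61e-11) made a 17.2-fold rise. Rragd, one of the Rag GTPases that bring the growth kinase complex mTORC1 to lysosomes, gave 10.06, 10.49 and 11.45 in deficient arrays and 5.71, 6.86 and 7.77 in intact arrays. It rose by 3.90 ± 0.25 (14.9-fold, adjusted p = 8.71e-08) although it varied more between intact arrays (SD 0.71) than most genes.

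Kdelr3, a receptor that returns escaped proteins from the Golgi to the endoplasmic reticulum, gave 7.86, 8.57 and 9.54 in deficient arrays and 5.50, 5.72 and 6.02 in intact arrays. Its difference was 2.89 ± 0.15 (SE, adjusted p = 8.13e-09), with no overlap. No fold is given for Kdelr3 or for any other gene with a group mean under the array medians, because the values carry no detection call. Sidt2, a lysosomal membrane protein linked to RNA uptake, gave 9.69, 11.20 and 11.50 in deficient arrays and 9.04, 9.27 and 9.40 in intact arrays, a 3.57-fold rise (1.83 ± 0.18, adjusted p = 1.24e-05). The lowest deficient value was DKO replicate 3, and the other 6 lay above 11.

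C1qtnf12, which encodes the adipokine also called adipolin, gave 9.88, 10.36 and 10.82 in deficient arrays and 6.76, 7.01 and 7.11 in intact arrays, a 9.92-fold rise (3.31 ± 0.11, adjusted p = 5.01e-11). Lgals3, the sugar-binding lectin galectin-3, gave 10.91, 11.34 and 12.29 in deficient arrays and 8.53, 8.78 and 9.33 in intact arrays, a 6.41-fold rise (2.68 ± 0.20, adjusted p = 7.19e-07). Neither gene's groups overlapped. With Klf8 these were the 3 listed published KLF3 targets, and all 3 rose, with a median difference of 2.68. The list was written with earlier results of these arrays known, so its count is not independent evidence. S100a10, the partner of annexin A2 in a membrane-linking complex, gave 11.68, 11.91 and 12.09 in deficient arrays and 9.07, 9.61 and 9.98 in intact arrays, a 5.01-fold rise (2.32 ± 0.12, adjusted p = 1.05e-08).

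Spi1 encodes PU.1, a myeloid transcription factor that opposes GATA1 in red cell precursors, and gave 9.36, 9.96 and 10.68 in deficient arrays and 7.47, 7.83 and 8.28 in intact arrays. Its rise was 4.34-fold (2.12 ± 0.16, adjusted p = 9.46e-07), with no overlap. Of the 12 granulocyte and myeloid markers 0 passed the test and 10 had a positive difference (median difference 0.21). At an unadjusted limma p under 0.05 there were 4 of them, 2 higher and 2 lower. Of the 16 macrophage markers 15 had a negative difference. Supt3, a subunit of the SAGA coactivator complex, gave 9.81, 10.49 and 11.84 in deficient arrays and 7.72, 7.85 and 8.02 in intact arrays, a 7.08-fold rise (2.82 ± 0.21, adjusted p = 7.19e-07). Dffb, the nuclease that cuts DNA during apoptosis, gave 8.41, 8.94 and 9.70 in deficient arrays and 6.55, 6.79 and 6.99 in intact arrays, a 4.73-fold rise (2.24 ± 0.14, adjusted p = 8.71e-08).

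Dkkl1, best known from developing sperm, rose by 2.38 ± 0.15 and Hydin, a protein of motile cilia, by 2.29 ± 0.15 (adjusted p = 8.71e-08 each). Dkkl1 read 7.56, 8.28 and 8.81 in deficient arrays against 5.53, 5.75 and 6.03 in intact arrays, and Hydin 7.54, 8.06 and 8.85 against 5.65, 5.74 and 5.88. Cbr1, a carbonyl reductase that detoxifies aldehydes and ketones, rose 4.09-fold (2.03 ± 0.15, adjusted p = 6.92e-07), and Cttnbp2nl, a cortactin-binding relative, rose 5.01-fold (2.32 ± 0.20, adjusted p = 1.76e-06). Prune2 rose by 2.47 ± 0.14 (5.52-fold, adjusted p = 2.02e-08) on its called cluster, and its other cluster differed by -0.01. In the plot of the largest rises none of the 15 genes has overlapping groups. With the macrophage marker mean added to the model all 15 kept their call, with adjusted p-values up to 0.000325 for Klf8.

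**Figure D2:**
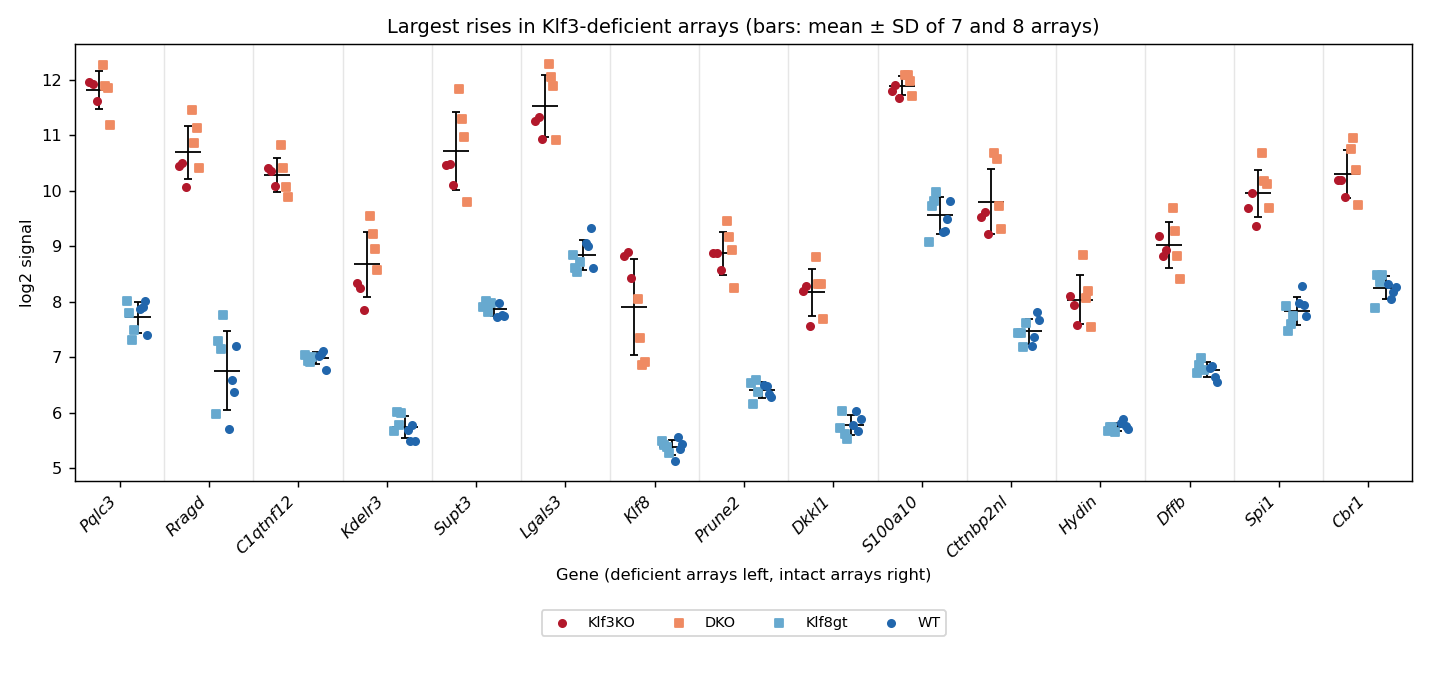
Log2 signal (vertical axis) of the 15 genes with the largest rises in Klf3-deficient cells (horizontal axis), with 1 point per array, Klf3KO and DKO arrays on the left and Klf8gt and WT arrays on the right of each gene, and bars for the mean ± SD of 7 and 8 arrays. The groups do not overlap in any of the 15 genes, and Klf8 is the gene in which all 3 Klf3KO arrays lie above all 4 DKO arrays.

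Genes that rose by at least 1, called derepressed here, mostly gave signal above the array medians in intact cells already. These 75 clusters (0.320% of those tested, 71 genes) had a mean signal of 4.59 to 10.5 in intact arrays, with a median of 7.51, against 5.92 to 11.9 with a median of 9.23 in deficient arrays. The 75 include the Klf3 cluster itself, whose probes are not placed relative to the deletion, and more than 1 cluster of some genes. Set against the quartiles of the intact arrays themselves, only 1 of the 75 (1.33%) lay below the lower quartile in intact cells, where 19.2% of all tested clusters lay. Another 14 (18.7%, beside 23.1% of all) lay between lower quartile and median, 31 (41.3%, beside 24.6%) between median and upper quartile and 23 (30.7%, beside 27.8%) above the upper quartile. The remaining 6 fell between array quartiles. In deficient arrays 55 of the 75 lay above the upper quartile. These shares describe called rises, chosen by their size, and carry no test.

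**Figure D3:**
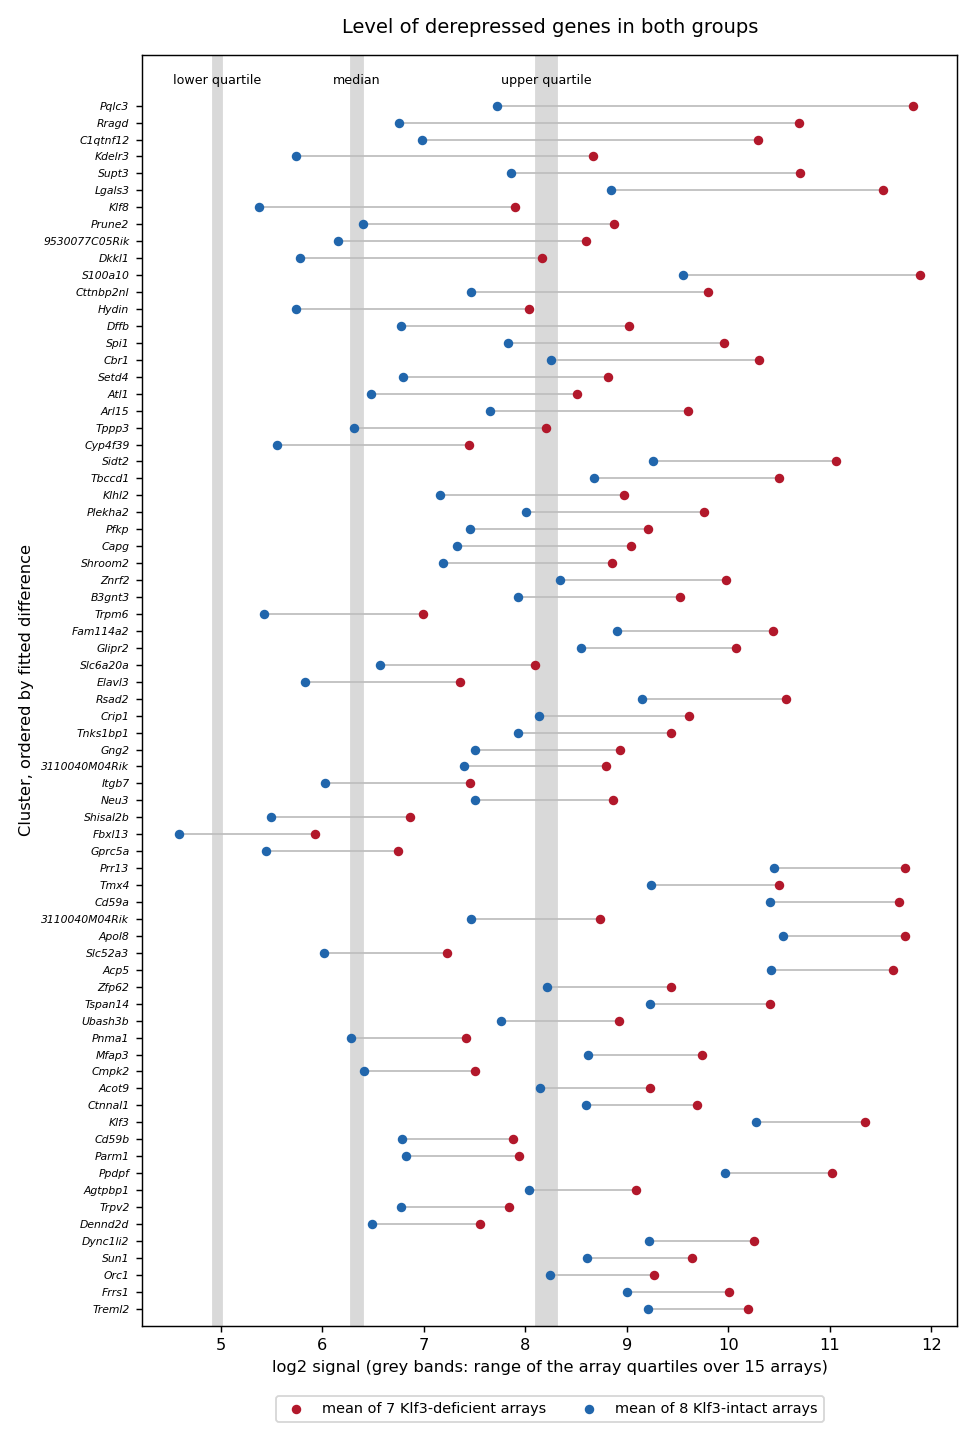
Mean log2 signal (horizontal axis) of each cluster with 1 gene symbol that rose by at least 1, in the 7 Klf3-deficient arrays (red) and the 8 Klf3-intact arrays (blue), ordered by fitted difference, with grey bands for the range of array quartiles. The blue points lie on both sides of the median band and 1 (Fbxl13) lies under the lower quartile, while most red points lie above the upper quartile.

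At the low end, Fbxl13 was the only derepressed gene under the lower quartile in intact cells, and Kdelr3, Klf8, Dkkl1 and Hydin were the 4 largest rises between lower quartile and median (an unnamed Riken clone left out). Fbxl13, an F-box protein of the ubiquitin system, gave 5.24, 5.70 and 6.99 in deficient arrays and 4.41, 4.60 and 4.77 in intact arrays. It differed by 1.30 ± 0.19 (adjusted p = 0.000621) with no overlap, and its deficient mean of 5.92 still lay under the array medians. Its difference was 0.85 (adjusted p = 0.0241) with the macrophage marker mean in the model. Hydin had an SD of 0.08 over the 8 intact arrays.

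At the high end, the 5 largest rises from above the upper quartile were Lgals3, S100a10, Sidt2, Tbccd1 and Znrf2. Tbccd1, which positions the centrosome, gave 10.06, 10.35 and 11.32 in deficient arrays and 8.34, 8.61 and 9.06 in intact arrays (3.48-fold, 1.80 ± 0.15, adjusted p = 1.57e-06). Znrf2, a ubiquitin ligase of membranes, gave 9.57, 9.91 and 10.80 in deficient arrays and 8.20, 8.30 and 8.51 in intact arrays (3.08-fold, 1.62 ± 0.14, adjusted p = 2.08e-06). Neither gene's groups overlapped.

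The derepressed clusters had a wider spread over the deficient arrays than over the intact ones. The median SD of the 75 clusters was 0.43 in deficient arrays and 0.17 in intact arrays, beside 0.17 and 0.16 over all tested clusters. Within genotypes (Klf3KO, DKO, Klf8gt and WT, in that order) the SDs were 0.21, 0.86, 0.09 and 0.12 for Supt3. They were 0.19, 0.45, 0.31 and 0.27 for Pqlc3 and 0.27, 0.54, 0.05 and 0.07 for Hydin. Whether loss of Klf3 alone widens the spread was not tested. The deficient arrays mix Klf3KO and DKO genotypes, and the rise was larger in DKO against Klf8gt than in Klf3KO against WT for 49 of the 75. The medians were 1.62 in DKO against Klf8gt and 1.32 in Klf3KO against WT. Over all tested clusters 50.2% were higher in that order.

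The 10 largest falls without overlap between deficient and intact arrays are described next. Some falls of similar size came with overlapping arrays, among them that of Car3, a carbonic anhydrase, at -1.80 (adjusted p = 0.00156), named after its value was seen. Cd5l, a secreted scavenger protein of macrophages, gave 6.13, 8.14 and 8.67 in deficient arrays and 8.77, 9.74 and 10.22 in intact arrays, a fall by 1.69 ± 0.24 (3.22-fold lower, adjusted p = 0.000585). It was the only macrophage marker called of 16. Over the whole list the median difference was -0.55 and 15 of 16 were negative, Adgre1 (F4/80) missing the threshold at -0.89 ± 0.23 (adjusted p = 0.0503). The list held 12 lower and 0 higher genes at an unadjusted limma p under 0.05. With the list's own mean in the model Cd5l differed by -1.05 (adjusted p = 0.0133). In these bulk samples, fewer macrophages and less macrophage RNA per cell cannot be told apart.

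Grap2, an adaptor of receptor signalling also called GADS, gave 8.25, 9.30 and 9.75 in deficient arrays and 10.47, 10.70 and 10.94 in intact arrays. The fall of 1.53 ± 0.16 (2.90-fold lower, adjusted p = 2.22e-05) came with a gap of 0.71 between the groups. Pik3r1, the main regulatory subunit of PI3 kinase, gave 8.50, 8.72 and 9.38 in deficient arrays and 9.76, 10.09 and 10.40 in intact arrays (2.33-fold lower, -1.22 ± 0.12, adjusted p = 9.23e-06). Its relative Pik3r3 differed by -0.34 ± 0.07 (adjusted p = 0.0187), a call that was lost without Klf3KO replicate 2 (0.0538) and with the macrophage marker mean in the model (0.148). These 3 were the members called among 21 PI3 kinase and receptor signalling adaptors, of which 19 had a negative difference, with a median of -0.12 beside -0.01 over all clusters. Of the 21, 1 was higher and 7 lower at an unadjusted limma p under 0.05.

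Septin1, a filament-forming GTPase, fell by 1.25 ± 0.15 (2.38-fold lower, adjusted p = 0.000108), with 6.32, 6.90 and 7.72 in deficient arrays and 7.78, 8.34 and 8.76 in intact arrays. Dnaja4, a co-chaperone, fell by 0.84 ± 0.11 (adjusted p = 0.000321), the phosphatase gene Ppm1e by 0.89 ± 0.11 (adjusted p = 0.000152) and Phlda3, a p53 target that restrains the kinase AKT, by 0.86 ± 0.13 (adjusted p = 0.00108). The groups of these 4 genes did not overlap, as the rule that chose them required, and all 4 kept their call with the macrophage mean in the model. Ypel5, a member of the Yippee family, fell by 0.79 ± 0.13 (adjusted p = 0.00177).

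Mat1a makes S-adenosylmethionine in hepatocytes and gave 5.77, 6.57 and 6.82 in deficient arrays and 6.86, 7.16 and 8.28 in intact arrays (1.95-fold lower, -0.96 ± 0.20, adjusted p = 0.0134). Pla2g7, a lipase that inactivates platelet-activating factor and is made by macrophages, gave 6.52, 7.44 and 7.60 in deficient arrays and 7.86, 8.01 and 8.51 in intact arrays (1.77-fold lower, -0.82 ± 0.15, adjusted p = 0.00517). With the macrophage marker mean in the model neither passed, at -0.66 (adjusted p = 0.262) for Mat1a and -0.49 (adjusted p = 0.16) for Pla2g7. Of 10 hepatocyte markers 9 had a negative difference (median -0.19) and 0 was called (1 at an unadjusted p under 0.05), with a list mean of 11.93 ± 0.45 in deficient arrays and 12.13 ± 0.41 in intact arrays (SD, n = 7 and 8).

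Pooling the arrays called changes that were called in neither genotype pair alone. The median standard error was 0.09 for the pooled effect, against 0.12 for Klf3KO over WT and 0.11 for DKO over Klf8gt from the same arrays. For a cluster with that median error, the smallest difference that could be called was 0.34 pooled, 0.56 between Klf3KO and WT and 0.42 between DKO and Klf8gt. Of the 531 pooled calls, 140 (0.598% of tested clusters and 26.4% of the calls) were made in neither pair, 75 higher and 65 lower. Their sizes ran from 0.21 to 1.48 with a median of 0.42, against a median of 0.63 for the other calls, and 101 of the 140 were under 0.5. All 140 had the same sign in both pairs, as did all 531 calls. The pooled effect combines both differences from the same arrays, so calling by it favours equal signs and this count is not separate evidence. In 23 of them the 7 deficient and 8 intact arrays did not overlap.

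The 8 such rises with the smallest p are named here, each gene taken by its own cluster with the smallest p. Pdlim1 and Ywhah also had a cluster called in neither pair, but their cluster with the smallest p was called within pairs, so they are not among the 8. Atp11b, a lipid flippase, gave 9.04, 9.71 and 10.53 in deficient arrays and 8.26, 8.62 and 9.13 in intact arrays (1.88-fold, 0.91 ± 0.18, adjusted p = 0.00936). Within pairs its difference was 1.17 (adjusted p = 0.0629) and 0.69 (adjusted p = 0.126) for Klf3KO over WT and for DKO over Klf8gt, and 1 of the 7 deficient arrays overlapped the intact range. Anxa2, the annexin that binds S100a10, gave 9.59, 9.96 and 10.35 in deficient arrays and 8.92, 9.40 and 9.65 in intact arrays (1.52-fold, 0.60 ± 0.12, adjusted p = 0.0102).

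Itgb1bp1, which binds the tail of integrin beta-1, rose 1.54-fold (0.62 ± 0.12, adjusted p = 0.00683), and of the 8 named it alone had no overlap, with a lowest deficient value of 8.02 just above the highest intact value (gap 0.03). Arfgap3, a regulator of Golgi vesicle coats, rose 1.38-fold (adjusted p = 0.00656), Tmem123, a cell surface receptor, 1.47-fold (adjusted p = 0.0112) and Osbpl9, an oxysterol-binding relative, 1.27-fold (adjusted p = 0.00998). Lilrb4a, an inhibitory immunoglobulin-like receptor, rose by 0.89 ± 0.18 (adjusted p = 0.00921) and Ttc12, which takes part in dynein assembly, by 0.30 ± 0.06 (adjusted p = 0.00833), both from intact means under the array medians.

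The 8 such falls with the smallest p were chosen in the same way. Txnip, which restrains glucose uptake and thioredoxin, gave 9.21, 9.40 and 9.56 in deficient arrays and 9.55, 9.69 and 9.85 in intact arrays (1.26-fold lower, -0.34 ± 0.06, adjusted p = 0.00435). The groups crossed by 0.01, and within pairs the difference was -0.38 (adjusted p = 0.104) for Klf3KO over WT and -0.31 (adjusted p = 0.0578) for DKO over Klf8gt. Natd1 gave 7.57, 7.72 and 7.98 in deficient arrays and 7.98, 8.08 and 8.33 in intact arrays (1.31-fold lower, adjusted p = 0.00348), the groups meeting at 7.98. Fnip2, a partner of folliculin in mTORC1 control, fell by 0.61 ± 0.11 (1.53-fold lower, adjusted p = 0.00527).

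Cbfa2t3, known as ETO2, is a corepressor in the erythroid complex of TAL1, GATA1 and LDB1. On its called cluster it gave 6.38, 6.92 and 7.24 in deficient arrays and 7.15, 7.51 and 7.86 in intact arrays (1.59-fold lower, -0.67 ± 0.12, adjusted p = 0.00558), but its other cluster differed by only -0.05. Ephx1, an epoxide hydrolase, fell by 0.66 ± 0.12 (1.59-fold lower, adjusted p = 0.00487). Gngt2, a G protein gamma subunit (-0.49, adjusted p = 0.00909), Gja4, the gap junction protein connexin 37 (-0.36, adjusted p = 0.00625), and Fbp1, a gluconeogenic enzyme (-0.42, adjusted p = 0.00857), fell too, each with at least 1 group mean under the array medians.

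**Figure D4:**
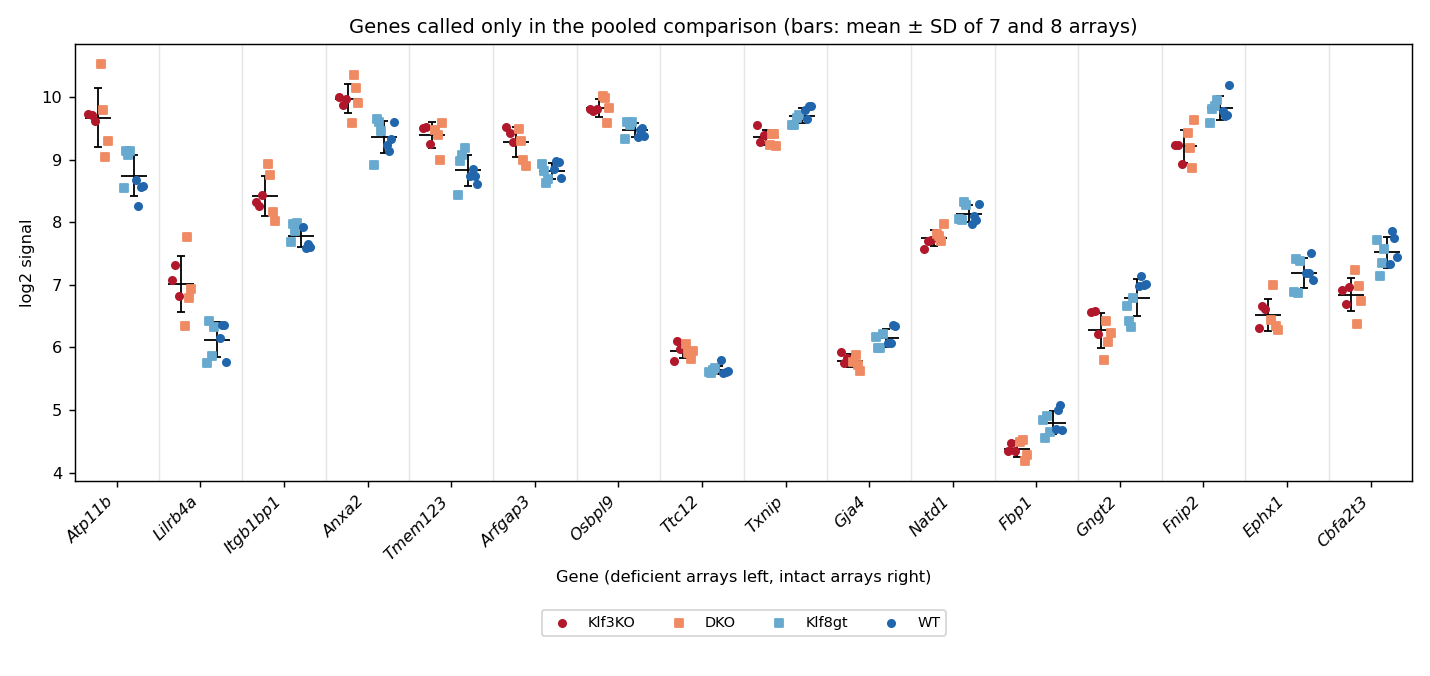
Log2 signal (vertical axis) of the 8 rises and 8 falls with the smallest p among genes whose cluster with the smallest p was called in the pooled comparison and in neither genotype pair (horizontal axis), drawn as 1 point per array with Klf3KO and DKO arrays left of Klf8gt and WT arrays and bars for the mean ± SD of 7 and 8 arrays. Differences run from 0.30 to 0.91 in size, and most groups touch or overlap by 1 or a few arrays.

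Calls on these small changes depended on the arrays, the clusters tested and the covariates. With each array left out in turn, between 73 (without Klf3KO replicate 2) and 114 (without DKO replicate 1) of the 140 were still called. The number was 95 with embryo sex as a covariate and 72 when all clusters were tested. With the macrophage marker mean in the model, 70 of the 75 rises of at least 1 were still called, and 23 of the 140 small changes were. Of the 16 small changes named here, Lilrb4a, Tmem123, Fbp1 and Cbfa2t3 kept their call in that fit, and the other 12 had adjusted p-values of 0.0512 to 0.224. Their differences in that fit kept their direction, from 0.28 for Ttc12 to 1.15 for Lilrb4a among the rises and from -0.33 for Gngt2 to -0.81 for Cbfa2t3 among the falls. Without Klf8gt replicate 1, 79 clusters were called pooled and in neither pair. The macrophage marker mean was itself lower in deficient arrays. A call lost in that fit can therefore come from a wider standard error as well as from a smaller difference. Txnip differed by -0.34 ± 0.06 without the covariate and by -0.34 ± 0.08 with it (SE). Anxa2 went from 0.60 ± 0.12 to 0.68 ± 0.16, and Itgb1bp1 from 0.62 ± 0.12 to 0.40 ± 0.13. The part of macrophage RNA in these changes was not tested. Rsad2, an interferon-induced antiviral enzyme, was the only change of at least 1 called in neither pair, at 1.48 ± 0.32 (2.80-fold, adjusted p = 0.0159). The call was lost with the macrophage marker mean in the model (0.95, adjusted p = 0.302) and without the Klf8 term (1.42, adjusted p = 0.0646). It ran from 8.41 to 11.37 in deficient arrays and from 8.40 to 9.95 in intact arrays, with the lowest deficient value, DKO replicate 4, next to the lowest intact one, and it was the only called member of 17 interferon response genes (median -0.11).

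The 2 Klf8 backgrounds were also compared as separate experiments that share no array. Fitted on their own arrays, Klf3KO against WT gave 481 calls (2.05%, 403 higher and 78 lower) and DKO against Klf8gt gave 188 (0.803%, 132 higher and 56 lower). Both called 100 clusters in the same direction, 91 higher and 9 lower, and 0 in opposite directions. The 100 made up 20.8% of the Klf3KO calls and 53.2% of the DKO calls. No label pairs arrays by replicate number. With the number as a block the shared count was 170. It was 54 with embryo sex as a covariate. Without single Klf8gt or DKO arrays the count was smaller, at 52, 55 and 53 without Klf8gt replicates 2, 3 and 4 and 64 without DKO replicate 2. The 91 shared rises had a median of 1.26 in DKO against Klf8gt and 1.09 in Klf3KO against WT. Of the 403 clusters called higher in Klf3KO arrays 65.5% were also above 0 in DKO against Klf8gt, and of the 78 called lower 73.1% were below 0, where 49.3% of all tested clusters were above 0.

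In the fit with 1 mean per genotype the calls leaned the other way, with 137 (0.585%) for Klf3KO over WT and 785 (3.35%) for DKO over Klf8gt, 412 of them in DKO over Klf8gt not called pooled. The 531 pooled calls divided into 115 made in both pairs, 258 made in DKO over Klf8gt alone, 18 made in Klf3KO over WT alone and the 140 described above. The plot of both within-background differences shows the called clusters along the line of equal differences, with Klf8 below it and Itgb7 above it.

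**Figure D5:**
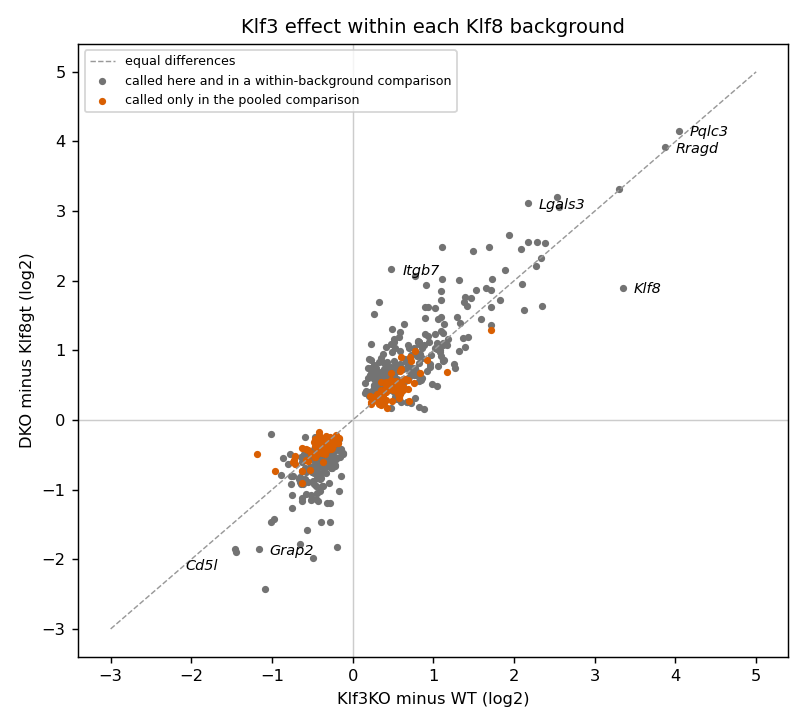
Difference of DKO minus Klf8gt (vertical axis, log2) against Klf3KO minus WT (horizontal axis, log2) for the 531 clusters called in the pooled comparison, with those called in neither pair in orange. All points lie in the quadrants of equal sign, which calling by the pooled effect favours, and the orange points cluster near 0.

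Itgb7, the beta-7 integrin subunit, was the only cluster whose Klf3 effect differed between backgrounds after adjustment (1 of 23410, 0.00427%). For this difference 3378 clusters had an unadjusted limma p under 0.05, beside 2558 for the pooled Klf3 effect. The single call therefore does not show that the other effects were equal in both backgrounds. The DKO arrays read 8.41, 7.70, 8.14 and 8.10 and the Klf8gt arrays 6.16, 5.91, 5.87 and 5.75. The Klf3KO arrays read 6.48, 6.77 and 6.60 and the WT arrays 6.49, 6.13, 5.91 and 6.01. The Klf3 effect was 2.16 ± 0.15 with the trap and 0.48 ± 0.16 without it, a difference of 1.68 ± 0.22 (SE, limma adjusted p = 0.0311). The call held in 6 of 15 fits that each left out 1 array, with adjusted p-values from 0.00267 to 0.214, and the number of such clusters ran from 0 to 718 (718 without Klf8gt replicate 1, 386 without DKO replicate 4 and 32 without DKO replicate 2).

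Embryonic globins, the genes of primitive red cells, were not called (0 of 3, and 0 of 3 at an unadjusted p under 0.05). Hba-x gave 11.67, 11.64 and 11.56 in Klf3KO and 12.42, 13.54, 13.18 and 13.32 in DKO arrays, against 10.74, 12.31, 12.17 and 12.38 in Klf8gt arrays and 10.70 to 12.59 in the 4 WT arrays. Each DKO array lay above every Klf8gt array, and the Klf3KO arrays lay inside the WT range. The pooled differences were 0.59 (95% interval -0.09 to 1.27) for Hba-x, 0.28 (-0.44 to 0.99) for Hbb-bh1 and 0.13 (-0.18 to 0.43) for Hbb-y, with exact permutation p-values of 0.182, 0.582 and 0.531. The minor gene Hbb-bh2 differed by 0.12 (-0.13 to 0.36). For Hbb-bh1, Klf3KO arrays differed from WT by -0.60 and DKO arrays from Klf8gt by 1.02, so a pooled Klf3 effect averages differences of opposite sign. The adult globins had no cluster of their own.

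Lists of red cell genes are given by their counts, beside 2.27% called over all tested clusters and 2558 of 23410 with an unadjusted p under 0.05. Of 22 erythroid transcription factors Ldb1, the bridging factor of the TAL1 and GATA1 complex, was called higher (1.33-fold, 0.41 ± 0.07, adjusted p = 0.00361) and Cbfa2t3 lower. The list median was -0.10, with 18 negative differences, and 3 genes were higher and 9 lower at an unadjusted p under 0.05. Ldb1 differed by 0.61 between DKO and Klf8gt and by 0.19 between Klf3KO and WT arrays, and with the macrophage marker mean in the model its difference was 0.35 (adjusted p = 0.095). Of 19 genes of the red cell membrane and skeleton only the water channel Aqp1 was called, with 8.63, 8.96 and 9.25 in deficient arrays and 9.25, 9.43 and 9.97 in intact arrays (1.46-fold lower, -0.54 ± 0.09, adjusted p = 0.00222). It was also the only call among 13 KLF1-activated genes (median -0.04).

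Of 15 late erythroid maturation genes 14 had a negative difference, with a median of -0.23, and Ypel4 was called. In this list 0 genes were higher and 7 lower at an unadjusted p under 0.05. Ypel4 gave 9.92, 11.47 and 11.85 in deficient arrays and 11.69, 12.02 and 12.27 in intact arrays (-0.77 ± 0.18, adjusted p = 0.0357), and its call held in 6 of 15 fits that left out 1 array, and was lost without the Klf8 term (adjusted p = 0.0745) and with embryo sex as a covariate (0.0677). In haem synthesis and iron handling 0 of 21 genes was called by limma (median -0.11), with 2 higher and 6 lower at an unadjusted p under 0.05. The cell cycle list held 0 calls of 27 (median -0.04, 1 higher and 2 lower unadjusted) and red cell glycolysis 0 of 12 (median 0.20, 3 higher and 1 lower unadjusted). The 13 listed KLF3 corepressors and partners held 0 calls, with a median of 0.05 and 1 gene in either direction unadjusted.

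Relatives of the strongly derepressed genes were listed with those genes' rises known. Of 21 genes of the Rag GTPases, folliculin and lysosomal mTORC1 control, Rragd and Castor1, an arginine sensor, were called higher and Fnip2 lower, with a median of -0.02. Castor1 differed by 0.48 ± 0.08 (1.40-fold, adjusted p = 0.00215), and by 0.44 (adjusted p = 0.055) with the macrophage marker mean in the model. Of 10 galectins, Lgals3 and Lgals1 (1.29-fold, 0.37 ± 0.07, adjusted p = 0.00762) were called higher, with a list median of -0.12. The Lgals1 call was lost with the macrophage marker mean in the model (0.33, adjusted p = 0.109). Kdelr3 was the only call of 9 genes of KDEL retention, and Pqlc3 the only call of 3 PQ-loop genes.

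Of 17 S100 proteins and annexins 4 were called higher and 0 lower, 14 had a positive difference, and the median was 0.19. Unadjusted, 7 were higher and 0 lower at a limma p under 0.05. Beside S100a10 and Anxa2, Anxa5, which binds exposed phosphatidylserine, gave 10.36, 10.77 and 11.08 in deficient arrays and 9.38, 9.77 and 10.08 in intact arrays (1.98-fold, 0.98 ± 0.11, adjusted p = 2.66e-05). Anxa7 rose 1.46-fold (0.55 ± 0.08, adjusted p = 0.000739), also without overlap. S100a6 and S100a11 did not pass, at 0.45 (adjusted p = 0.091) and 0.21 (adjusted p = 0.171).

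Other lists held at most 1 call in either direction. In the p53 and apoptosis list of 14 genes Dffb rose and Phlda3 fell (median -0.10). In the integrated stress response list of 14, Trib3, a pseudokinase induced by stress, was called higher (1.37-fold, adjusted p = 0.0455), and the call held in 3 of 15 fits that left out 1 array and was lost with the macrophage marker mean in the model (adjusted p = 0.162). Among 12 progenitor markers Spi1 rose and Mecom, a stem cell regulator, fell by 0.62 ± 0.13 (adjusted p = 0.0153), with -0.11 on its other cluster. Among 10 lymphoid and mast cell markers the T cell costimulator Icos fell by 0.62 ± 0.10 (adjusted p = 0.00226). With the macrophage marker mean in the model neither Mecom (-0.68, adjusted p = 0.0828) nor Icos (-0.47, adjusted p = 0.0898) was called. Endothelial (8 genes, median -0.13), stromal (10, median 0.02) and megakaryocyte markers (6, median -0.25) and 2 primitive erythroid aquaporins (median 0.35) held 0 calls, with 0, 2, 0 and 1 genes at an unadjusted limma p under 0.05. Over all 33 lists, 361 of 398 listed genes were measured, 18 of them called higher and 13 lower (8.59% in all, beside 2.27% of all tested clusters). The lists were chosen with earlier results known, so that share supports nothing about them.

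Called genes were spread over the genome. Between 1.46% and 3.40% of the tested genes of each autosome and of X were called, the lowest share on chromosome 6 and the highest on chromosome 18. Near Klf3 on chromosome 5, 1 of the 20 nearest tested genes was called, Tlr6, a toll-like receptor that fell by 0.63 ± 0.11 (adjusted p = 0.00271). Tlr6 differed by -0.33 (adjusted p = 0.0424) with the macrophage marker mean in the model. Of the 50 nearest, 1 was called higher and 3 lower, of the 100 nearest 2 and 4, and of the 200 nearest 3 and 4. Over the whole of chromosome 5, 2.19% of tested genes were called. Whether calls gather near Klf3 was not tested. Directly adjacent tested genes were both called in 31 of 19825 pairs, 26 of them in the same direction (15 both higher and 11 both lower). They included Setd4 and Cbr1 (2.02 and 2.03), Cd59b and Cd59a (1.08 and 1.26), Fam114a2 and Mfap3 (1.53 and 1.12), Rsad2 and Cmpk2 (1.48 and 1.11) and Rragd with Ube2j1 (3.90 and 0.71), all higher in Klf3-deficient cells. These pairs were chosen after their values were seen, and near-identical neighbours such as Cd59a and Cd59b may share probes.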

How the data were processed

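The deposited table holds log2 signals of Affymetrix arrays, and per the submitters' processing notes the authors used RMA and Partek (no versions stated). No genome build is named for the platform. RNA was extracted with TRI-Reagent and column cleanup and labelled with biotin, per the labels' protocols. Of 35556 transcript clusters, 23410 had at least 1 gene symbol in the platform annotation (21789 exactly 1, 1621 several, which are never named).

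All 15 arrays were fitted with limma 3.58.1 (R 4.3.3), with Klf3 and Klf8 genotype as additive terms and eBayes without a trend. Tests were two-sided, and p-values were adjusted by Benjamini and Hochberg over the 23410 clusters. A fit with 1 mean per genotype gave the within-background differences and the interaction. Array numbers limit the precision. The procedure was also run on simulated data with independent normal noise and equal Klf3 effects in both backgrounds. That setting held no shared array effects and no unequal spread between genotypes, so it does not show how the calls behave on these arrays. Fold values are 2 raised to the fitted difference.

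Named genes were Klf3, Klf8 and the globins, the 15 largest rises and 10 largest falls without overlap, called members of the lists, the 8 rises and 8 falls with the smallest p that were called only pooled, and 5 rises of at least 1 each from low intact levels (those under the lower quartile first, then the largest under the median) and from high ones. Each gene was taken by its cluster with the smallest p. Predicted and Riken genes were skipped. Members, lists and this rule were chosen with earlier results of these data known. Deviations of same-numbered DKO and Klf8gt arrays correlated at 0.534, 0.114, 0.158 and 0.18, and those of Klf3KO and WT arrays at 0.039, 0.105 and -0.129. Only replicate 1 of DKO and Klf8gt stood out, so these values do not establish a pairing by replicate number. Alternatives changed the replicates, model, variance, normalization, clusters tested and covariates.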

Additional observations from a re-analysis of the deposited data

Results flagged for a closer look

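Among 128 groups of arrays examined for the 64 named genes, 4 held an array far from the others, where chance alone marks about 1 group in 20. Sidt2 read 9.69 in DKO replicate 3, against 11.09 to 11.5 in the other Klf3-deficient arrays. Cd5l read 6.129 in DKO replicate 1, against 7.613 to 8.668 in the other Klf3-deficient arrays, and that array also had the lowest mean of the macrophage markers (7.23). Klf3 read 10.51 in WT replicate 4, against 10.12 to 10.3 in the other Klf3-intact arrays. Ttc12 read 5.795 in WT replicate 1, against 5.588 to 5.673 in the other Klf3-intact arrays. Left out 1 array at a time, all 4 genes kept their call.

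For Itgb7 the Klf3 effect with the Klf8 trap exceeded that without it by 1.684 (limma interaction, adjusted p = 0.0311), and this call held in 6 of 15 fits that left out 1 array.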

How the results depend on the processing

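Leaving out each array in turn gave 276 to 347 higher clusters, 131 to 267 lower ones (131 without Klf3KO replicate 3 and 136 without WT replicate 3), 79 to 197 called in neither genotype pair, 52 to 119 called in both array-disjoint comparisons, 70 to 84 rises and 8 to 14 falls of at least 1, and 0 to 718 interaction calls. With the macrophage marker mean as a covariate, 202 clusters were higher and 74 lower, 162 and 61 of them also called without it, 87 were called in neither pair and 33 in both disjoint comparisons. The count called in both disjoint comparisons was 170 with the replicate block, 175 with array weights, 58 over all clusters and 54 with embryo sex as a covariate. The count called in neither pair was 225 with array weights, 48 with within-pair calls at an adjusted p under 0.1, and 225 with pairs fitted on their own arrays, an alternative chosen after seeing the data. Taking every called rise in place of those of at least 1, 59 intact means lay below the array medians and 127 above the upper quartiles, against 15 and 23. With the replicate block 330 clusters were higher and 231 lower, and the block changed no call of a named gene. Of 60 called named genes, 37 kept their call with the macrophage covariate and at least 56 in each other refit that kept all arrays, where 60 were tested. No direction of a named gene reversed in any alternative. Without DKO replicate 1 and Klf8gt replicate 1 together, 306 were higher and 205 lower. The number of arrays and the lack of detection calls limit small differences and low signals.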
